A study of Mus musculus with 9 samples.

Results

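The 10 genes described here belong to the tumor necrosis factor (TNF) receptor and ligand family, and include the death receptors. They are the receptor genes Tnfrsf10b, Fas, Tnfrsf1a, Tnfrsf21, Tnfrsf1b, Tnfrsf12a and Ltbr, the soluble decoy receptor gene Tnfrsf11b, and the ligand genes Tnfsf10 and Tnfsf12. The genes were chosen by family membership with earlier values of the same comparison of environments in view, so their differences between environments are given as a description, and nothing is read from the calls that the fit over all genes makes among them. All 10 were found by symbol through their Ensembl identifiers among the 22262 genes counted in any library, and all 10 were among the 17441 genes tested.

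RNA was taken from a piece of the upper colon of 9 wild-type female C57BL/6N mice aged 12 months. Since weaning, 4 mice (WT_SE mice 1, 2, 3 and 5) had lived in the standard environment, in standard cages with few mice, and 5 (WT_EE mice 1 to 5) in the enhanced, or enriched, environment, with larger cages, more cage mates, toys, tunnels and running wheels. The sources used here do not give which mice shared a cage, and mice with the same number in both groups are different animals. Transgenic mice are not analysed here. Libraries held the RNA of all cells of the tissue piece, so fewer cells of a type and less RNA per cell cannot be told apart.

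The library method reads each transcript near its poly(A) tail and carries unique molecular identifiers (UMIs), random tags that let amplification copies of a molecule be counted once. Counts therefore do not grow with transcript length. Whether the same share of transcripts was counted for each gene was not tested, so comparisons between genes are comparisons of counts. Total counts were 299062 to 383401 per library in WT_SE (median 362850.5) and 295535 to 454043 in WT_EE (median 426436). Levels are given as CPM, a count scaled to a fixed library total, after TMM normalization, a scaling by edgeR that adjusts library totals for differences in composition. A floor of 3 counts, equal to 6.61 to 10.2 CPM depending on the library, was taken as the limit below which differences are not interpreted, and it covers counting error only. At this depth, only 4 of the 10 genes (Ltbr, Tnfrsf21, Tnfrsf1a and Tnfrsf1b) were above the floor in all 9 libraries. The libraries of WT_SE mice 1 and 3 have names ending in L3 and the other 7 in L2, and the labels do not say what the ending means.

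Receptors of the TNF family sit on the cell surface and are brought together by trimeric ligands. Death receptors, among them Fas, Tnfrsf1a, Tnfrsf21 and Tnfrsf10b, carry an intracellular death domain through which adaptor proteins and caspase 8 can be recruited, and the same complexes can also switch on NF-kB, a transcription factor of inflammatory genes. Receptors without a death domain, such as Tnfrsf1b, Tnfrsf12a and Ltbr, bind TRAF adaptors and act mainly through NF-kB and kinases. In the intestine the family is known for its part in epithelial turnover, in the forming of lymphoid tissue and in inflammation.

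The genes lie on several chromosomes of the mouse genome GRCm38. Tnfrsf10b, which encodes the mouse death receptor for TRAIL, is on the plus strand of chromosome 14 from 69767472 to 69784411 (ENSMUSG00000022074). Ltbr, the lymphotoxin beta receptor gene (ENSMUSG00000030339), occupies chromosome 6 from 125306571 to 125313885 on the minus strand. Tnfrsf1a, which encodes the TNF receptor with a death domain (ENSMUSG00000030341), starts 35476 bases beyond the end of Ltbr, on the plus strand of chromosome 6 from 125349362 to 125362484. Tnfrsf21, the gene of death receptor 6 (ENSMUSG00000023915), is on the plus strand of chromosome 17 from 43016555 to 43089189. Tnfrsf1b, which encodes the TNF receptor without a death domain (ENSMUSG00000028599), occupies chromosome 4 from 145213463 to 145246870 on the minus strand. Fas, the receptor for Fas ligand (ENSMUSG00000024778), is on the plus strand of chromosome 19 from 34290666 to 34327772. Tnfsf12 overlaps 2 other counted genes on chromosome 11, Tnfsfm13 on its own strand (1 to 4 counts per library) and Tnfsf13os on the other strand (7 to 25 counts), and the sources used here do not state whether strand was used in counting, so its counts are uncertain.

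Promoter sequences from RefSeq (GRCm38.p6) were matched for 7 of the 10 genes. The 250 bases before the annotated start are printed for Ltbr, Tnfrsf1b and Tnfrsf21. They were picked because Tnfrsf1b was related to each of the other 2 across mice by Pearson r, though not by Spearman rho. Each sequence is printed in the direction of its gene. The capitals mark each GC box, a motif bound by Sp1 family factors. It reads GGGCGG as printed, or CCGCCC where GGGCGG lies on the opposite strand.
Ltbr (chr6:125313886-125314135, minus strand): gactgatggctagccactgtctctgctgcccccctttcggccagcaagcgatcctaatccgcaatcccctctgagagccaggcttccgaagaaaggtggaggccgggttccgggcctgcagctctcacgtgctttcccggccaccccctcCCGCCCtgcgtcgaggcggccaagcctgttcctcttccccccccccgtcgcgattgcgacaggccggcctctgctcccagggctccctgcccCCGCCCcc
Tnfrsf1b (chr4:145246871-145247120, minus strand): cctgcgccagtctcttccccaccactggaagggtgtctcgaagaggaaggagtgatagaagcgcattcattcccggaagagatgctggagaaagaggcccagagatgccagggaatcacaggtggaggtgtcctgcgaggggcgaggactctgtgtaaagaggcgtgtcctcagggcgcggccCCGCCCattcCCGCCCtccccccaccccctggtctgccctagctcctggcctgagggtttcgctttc
Tnfrsf21 (chr17:43016305-43016554, plus strand): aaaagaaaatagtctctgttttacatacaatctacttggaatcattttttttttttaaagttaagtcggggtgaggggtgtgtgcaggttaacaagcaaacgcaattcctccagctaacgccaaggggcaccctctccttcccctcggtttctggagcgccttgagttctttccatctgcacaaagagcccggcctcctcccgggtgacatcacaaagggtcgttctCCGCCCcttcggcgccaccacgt
In windows of 300 bases, from 250 before to 50 after the start, a GC box was present in 5 of the 7 matched genes and in 35.7% of 32851 promoters. The window of Ltbr held 2 GC boxes and was 70.0% G and C, that of Tnfrsf1b held 2 and was 62.7%, and that of Tnfrsf21 held 1 and was 53.7%. Tnfrsf1a, which was also related to Ltbr by Pearson r but is not printed, held 0 GC boxes and was 57.0%. The median over all promoters was 52.7%. Letters that resemble an NF-kB site (GGG, any 5 bases and CC, on either strand) were in 5 of the 7 and in 50.8% of all promoters. The CCAAT box (CCAAT) was in 1 of 7 against 37.4% of all, the AP-1 letters (TGANTCA) in 1 against 7.81%, and the core letters of a CRE (TGACG) in 1 against 20.8%. None of the 7 windows held TATAAA (13.6% of all) or the letters TGATGNAA of a composite ATF4-CHOP site (3.97% of all). Each motif was searched on both strands, matches of different motifs can overlap, and a match is a description of the letters only.

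Across all 9 mice the 10 genes spanned a wide range of levels, with Ltbr, Tnfrsf21 and Tnfrsf1a at the top and Tnfrsf12a at the bottom. Mean levels were 154 CPM for Ltbr, 130 CPM for Tnfrsf21 and 125 CPM for Tnfrsf1a. Tnfrsf1b followed at 34.6 CPM, Fas at 20.2 CPM, Tnfsf10 at 18 CPM, Tnfrsf10b at 14.1 CPM, Tnfsf12 at 11.4 CPM, Tnfrsf11b at 9.46 CPM and Tnfrsf12a at 3.40 CPM. The first 3 genes held 1402 of the 1780 counts of the 10 genes (78.8%, and 72.4% to 82.5% within single libraries). Neighbours in this order were compared within mice by a two-sided exact sign-flip permutation test on log2(CPM + 1), with Benjamini-Hochberg adjustment over 9 pairs, where 0.00391 is the smallest p that 9 mice allow. Tnfrsf1a exceeded Tnfrsf1b in 9 of 9 mice, by a log2 ratio of 1.87 ± 0.41 (SD, n = 9; exact permutation p = 0.00391, adjusted p = 0.0352). Tnfrsf1b exceeded Fas in 8 of 9 mice, by 0.72 ± 0.49 (SD, n = 9; exact permutation p = 0.00781, adjusted p = 0.0352). The other 7 neighbouring pairs did not pass this test (exact permutation, adjusted p from 0.141 to 0.969). Ltbr was above Tnfrsf21 in 8 of 9 mice, by 0.23 ± 0.31 (SD, n = 9), and Tnfrsf21 above Tnfrsf1a in 5 of 9, so the order of the top 3 receptors was not resolved. The 2 calls depend on the number of mice, since leaving out 1 mouse at a time gave 0 to 3 calls and raises the smallest p the test can give.

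**Figure D1:**
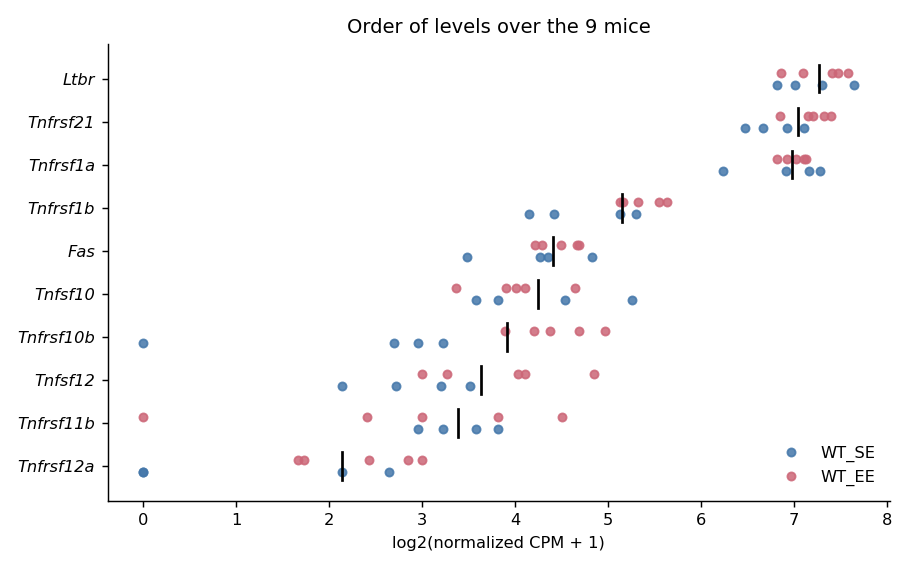
Level of each gene in each of the 9 mice on a log2(normalized CPM + 1) axis, with 1 point per mouse, blue for the 4 WT_SE and red for the 5 WT_EE mice, and a bar at the log2 of the mean over 9 mice plus 1. Ltbr, Tnfrsf21 and Tnfrsf1a overlap at the top, with means of 154, 130 and 125 CPM, and stand apart from Tnfrsf1b at 34.6 CPM.

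Seen against the whole family, receptor counts far exceeded ligand counts in these libraries. The family list held 46 genes, of which 28 receptors were all counted and 16 of 18 ligands were counted, with Tnfsf4 and Tnfsf18 at 0. Receptors summed to 2439 counts and ligands to 317, which made ligands 11.5% of the family's counts, and 7.77% to 15.8% within single libraries. The 10 genes described here held 64.6% of the family's counts. Among the other 36 genes, Tnfrsf11a, the receptor of RANK ligand, had by far the most, with 510 counts, and 25 of the 36 were at or under the floor in every library. Over all 9 libraries there were 11 counts of Tnf, whose protein binds Tnfrsf1a and Tnfrsf1b, and 2 counts of Fasl, the gene of Fas ligand.

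Between environments, the TRAIL receptor gene Tnfrsf10b had the largest fold change of the 10, while in CPM the means of Tnfrsf21 lay further apart. It had 0, 3, 2 and 2 counts in WT_SE mice 1, 2, 3 and 5, and 14, 5, 9, 8 and 6 counts in WT_EE mice 1 to 5. As normalized levels these were 0, 8.35, 6.76 and 5.47 CPM in WT_SE and 30.2, 17.4, 19.7, 24.7 and 13.9 CPM in WT_EE. No WT_SE mouse exceeded 3 counts and all WT_EE mice did, so the groups did not overlap. The WT_SE mean was 5.15 ± 3.63 CPM (SD, n = 4), and the WT_EE mean was 21.2 ± 6.40 CPM (SD, n = 5). With 7 counts against 42, the ratio of summed counts per total was 4.32, with an exact 95% interval of 1.92 to 11.4 that covers counting error only. The fitted log2 fold change was 2.02 ± 0.55 (SE), with a 95% interval of 0.91 to 3.13, and both measures rest on the same 7 counts in WT_SE.

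Depth and the library-name ending were set beside this difference. The total was 295535 to 454043 counts in WT_EE and 299062 to 383401 in WT_SE, and the part of depth in the difference was not tested. The log2 fold change was between 1.59 and 1.62 in each of 3 smaller sets of mice, without WT_SE mice 1 and 3 (whose library names end in L3), without WT_SE mouse 1 alone (the mouse at 0), and without WT_SE mouse 1 and WT_EE mouse 3 (the libraries with the most fat-marker counts). Over the 20 alternatives in which it could be fitted it stayed between 1.58 and 2.38. Under edgeR's filterByExpr, a stricter filter on low counts, Tnfrsf10b was not kept.

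**Figure D2:**
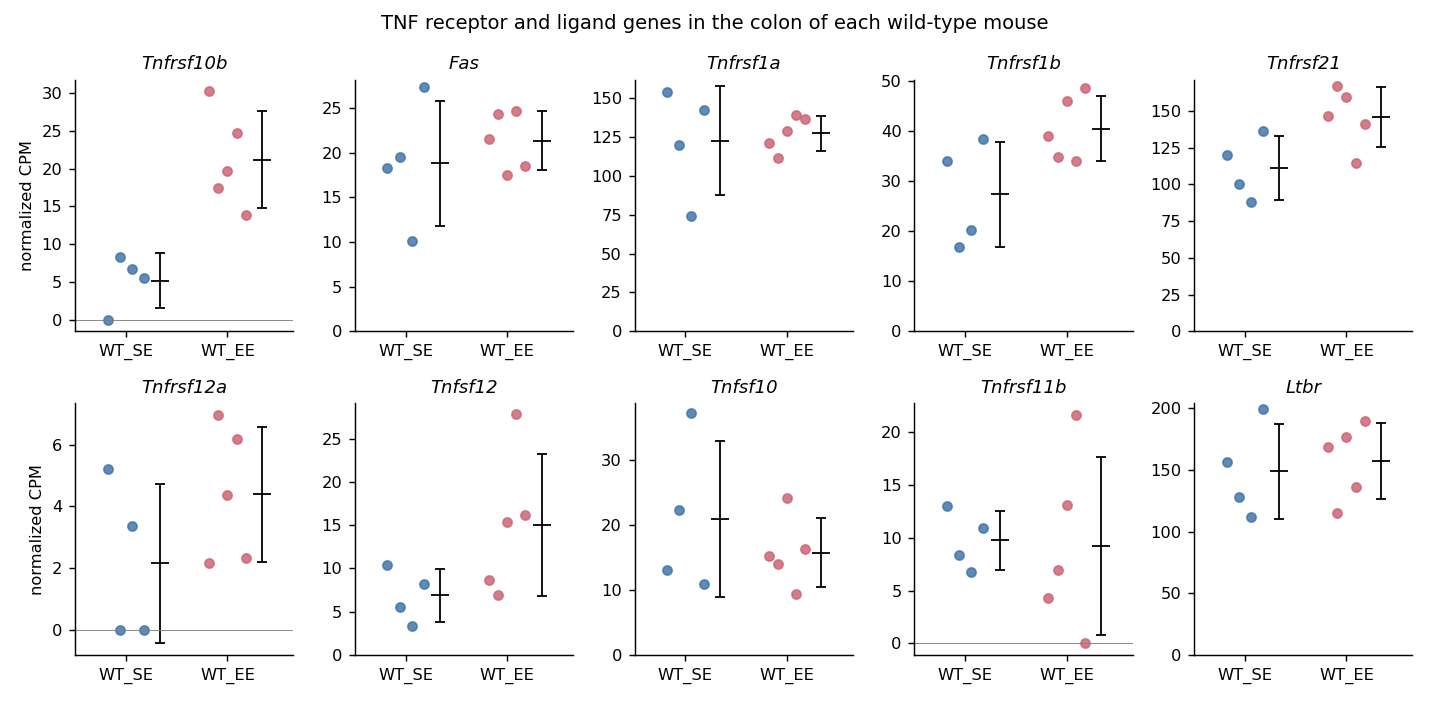
Normalized CPM (vertical axis, a separate scale in each panel) of the 10 genes in each wild-type mouse, with 1 point per mouse and a black bar for the mean ± SD of 4 WT_SE and 5 WT_EE mice. Tnfrsf10b is the one panel without overlap, at 0 to 8.35 CPM in WT_SE and 13.9 to 30.2 CPM in WT_EE.

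TRAIL itself is encoded by Tnfsf10. Its counts were 5, 8, 11 and 4 in WT_SE and 7, 4, 11, 3 and 7 in WT_EE. The mean level was 20.9 ± 12 CPM in WT_SE (SD, n = 4) against 15.7 ± 5.35 CPM in WT_EE (SD, n = 5). The groups overlapped widely, with the highest level, 37.2 CPM, in WT_SE mouse 3, and the log2 fold change was -0.32 ± 0.42 (SE). Tnfrsf11b encodes osteoprotegerin, a soluble decoy for RANK ligand that also binds TRAIL. It ranged from 6.76 to 13.1 CPM in WT_SE and from 0 to 21.6 CPM in WT_EE. Its highest and lowest levels were thus both in WT_EE, at 7 counts in mouse 4 and 0 counts in mouse 5, which allows up to 7.04 CPM there, and the log2 fold change was -0.17 ± 0.62 (SE).

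Among the 10 genes, the other death receptors were Tnfrsf21, Fas and Tnfrsf1a, with log2 fold changes of 0.38, 0.13 and 0.04. Over the alternatives, Fas ranged from -0.16 to 0.37 and Tnfrsf1a from -0.11 to 0.17, so neither kept its sign. Tnfrsf21 stood at 120, 100.2, 87.9 and 137 CPM in WT_SE mice 1, 2, 3 and 5. In WT_EE mice 1 to 5 it stood at 147, 167, 160, 114 and 141 CPM. WT_EE mouse 4 fell among the WT_SE mice, and the other 4 WT_EE mice were above all WT_SE mice. The mean of Tnfrsf21 was 111 ± 21.5 CPM in WT_SE (SD, n = 4) against 146 ± 20.4 CPM in WT_EE (SD, n = 5). The log2 fold change was 0.38 ± 0.17 (SE). Tnfrsf1a, the main receptor of soluble TNF, had 154, 120, 74.4 and 142 CPM in WT_SE and 121, 112, 129, 139 and 136 CPM in WT_EE. All 5 WT_EE mice lay inside the WT_SE range, whose lower end was WT_SE mouse 3. With 123 ± 35.1 CPM in WT_SE (SD, n = 4) against 127 ± 11.4 CPM in WT_EE (SD, n = 5), the log2 fold change was 0.04 ± 0.18 (SE), with a 95% interval of -0.32 to 0.40. Fas had 7, 7, 3 and 10 counts in WT_SE and 10, 7, 8, 8 and 8 in WT_EE. These overlapped as well, at 18.8 ± 7.04 CPM in WT_SE (SD, n = 4) against 21.3 ± 3.31 CPM in WT_EE (SD, n = 5), a log2 fold change of 0.13 ± 0.38 (SE). The spread of Fas over the 9 mice, a coefficient of variation of 25.1%, was below the 36.4% that counting alone gives at its mean count, so differences among mice were not detectable at this depth.

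For each receptor without a death domain, the levels of the groups overlapped. Tnfrsf1b, which is used mostly by membrane-bound TNF and is known from immune cells, had 33.9, 16.7, 20.3 and 38.3 CPM in WT_SE and 38.9, 34.9, 45.9, 34 and 48.6 CPM in WT_EE. Only WT_SE mouse 5 was inside the WT_EE range, WT_SE mouse 1 was just below its lower end, and WT_SE mice 2 and 3 were the lowest of all 9. The WT_SE mean was 27.3 ± 10.4 CPM (SD, n = 4), the WT_EE mean was 40.4 ± 6.54 CPM (SD, n = 5), with a log2 fold change of 0.56 ± 0.30 (SE). Ltbr, whose ligands are lymphotoxins and LIGHT, had 157, 128, 112 and 199.5 CPM in WT_SE and 168, 115, 177, 136 and 190 CPM in WT_EE. Both the highest and the lowest level were in WT_SE, and the log2 fold change was 0.09 ± 0.17 (SE). Tnfrsf12a encodes Fn14, the receptor of TWEAK, and had 0 to 2 counts in every library, so no fold change is given. Tnfsf12, the gene of TWEAK, had 4, 2, 1 and 3 counts in WT_SE and 4, 2, 7, 9 and 7 in WT_EE. WT_EE mice 1 and 2 were within the WT_SE counts and mice 3, 4 and 5 above them, with a log2 fold change of 1.03 ± 0.55 (SE) that ranged from 0.70 to 1.30 over its alternatives.

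**Figure D3:**
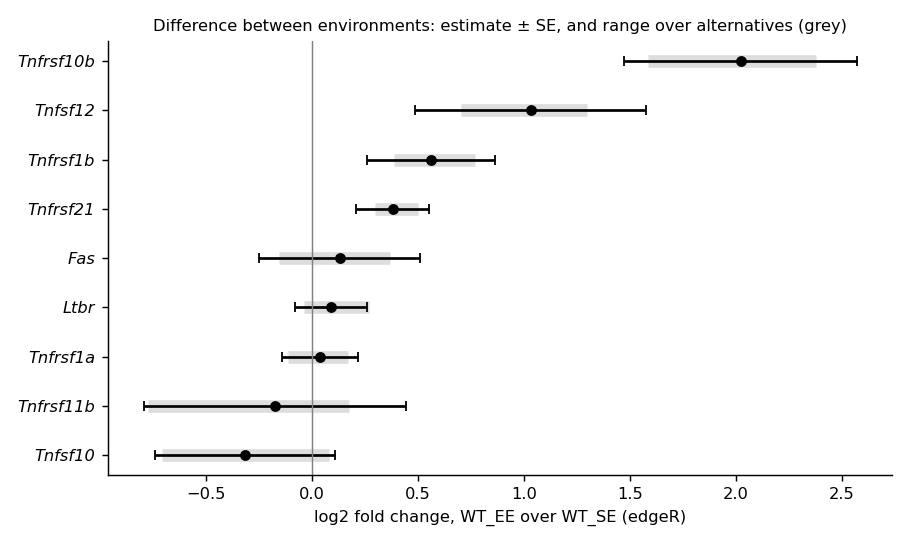
Log2 fold change of WT_EE over WT_SE (horizontal axis) of 9 genes, with points and black bars for the edgeR estimate ± SE and grey bars for the range over the alternatives in processing. Tnfrsf12a is left out because it had 2 counts or fewer in every library. Tnfrsf10b is at 2.02 with a range of 1.58 to 2.38, and the grey bars of Fas, Ltbr, Tnfrsf1a, Tnfrsf11b and Tnfsf10 cross 0.

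As a group, 8 of the 10 genes had a log2 fold change above 0 and 2 below, where 51.1% of all genes tested were above 0. The 8 include Tnfrsf12a at its fitted value, and Fas, Tnfrsf1a and Ltbr, which each fell below 0 in some alternatives. Tnfsf10 and Tnfrsf11b, the 2 below 0, each rose above 0 in some. The median was 0.26 for the 10 genes, in which Tnfrsf12a enters with its fitted value, and 0.01 over all genes. In edgeR's quasi-likelihood test 2 of the 10, Tnfrsf10b and Tnfrsf21, had an unadjusted p-value under 0.05, both higher in WT_EE, against 7.65% of all genes tested (4.31% higher and 3.34% lower). None of the 10 passed after Benjamini-Hochberg adjustment, as 0.0401% of all genes did. The DESeq2 Wald test called 1 of the 10 without adjustment (3.69% of all genes) and limma-voom called 2 (7.78%), and neither called any of the 10, or any gene (0%), after adjustment. Groups did not overlap for 1 of the 10, Tnfrsf10b, higher in WT_EE, where 1.38% of all genes did not overlap with WT_EE higher and 1.2% with WT_EE lower. These counts are a description too. Over 21 alternatives the log2 fold change of Tnfrsf21 ranged from 0.30 to 0.50, and it was 0.30 both when the library-name ending was a covariate and without WT_SE mouse 3.

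WT_SE mouse 3 was the lowest of the 9 mice for 5 of the 10 genes. These included Ltbr (112 CPM, with WT_EE mouse 2 at 115 CPM), Tnfrsf21 (87.9 CPM) and Tnfrsf1a (74.4 CPM). Fas (10.1 CPM, 3 counts) and Tnfsf12 (3.38 CPM, 1 count) were lowest there too, but at or under the floor of 3 counts. The highest level of Tnfsf10 (37.2 CPM) was also in this mouse. Its library was among the smallest, with 299062 counts, and its name ends in L3. Counts of the well-counted receptors grew faster than library totals. The slope of log counts on log totals was 2.41 for Tnfrsf1b, 2.23 for Ltbr, 1.84 for Tnfrsf1a and 1.71 for Tnfrsf21, where a slope of 1 means that CPM does not move with depth. Over all genes with the same range of counts the slope was 1.35 (mean of 10 to 20 counts) and 1.04 (40 to 80 counts). The WT_EE libraries had the higher median total, and the part of depth in the receptor differences was not tested.

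Relations between levels across mice were computed for the 6 pairs of the 4 genes with a mean of at least 10 counts, and 3 pairs passed by Pearson r and 0 by Spearman rho. Tnfrsf1b was related to Tnfrsf21 with a Pearson r of 0.82 (n = 9; exact permutation p = 0.00755, adjusted p = 0.0453 over 6 pairs) and a Spearman rho of 0.75 (exact permutation p = 0.0255, adjusted p = 0.0765). Tnfrsf1b was related to Ltbr with r of 0.72 (n = 9; exact permutation p = 0.0222, adjusted p = 0.0466) and rho of 0.75 (exact permutation p = 0.0255, adjusted p = 0.0765). Ltbr and its chromosomal neighbour Tnfrsf1a gave r of 0.68 (n = 9; exact permutation p = 0.0233, adjusted p = 0.0466) and rho of 0.68 (exact permutation p = 0.0503, adjusted p = 0.101). The other 3 pairs passed by neither (exact permutation, adjusted p of 0.189 or more). Among them, Tnfrsf21 with Tnfrsf1a had r of 0.46 and rho of 0.02, and leaving out the 2 mice farthest from the Tnfrsf21 median gave r of -0.81. For the pairs that passed, r without the 2 mice farthest from the median of the first-named gene was 0.79 for Ltbr with Tnfrsf1b, 0.43 for Tnfrsf21 with Tnfrsf1b and 0.25 for Ltbr with Tnfrsf1a, so the latter 2 relations rest on those mice. The permutation took the 9 mice of both environments together, so a difference between environments enters r and its p-value. Within environments, r was 0.83, 0.67 and 0.67 in the same order, without a test. Among the 7 libraries whose names end in L2 it was 0.62, 0.76 and 0.68, and the L3 ending holds only 2 libraries of 1 group. These genes share the slopes on library totals given above, and the part of depth in the relations was not tested.

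**Figure D4:**
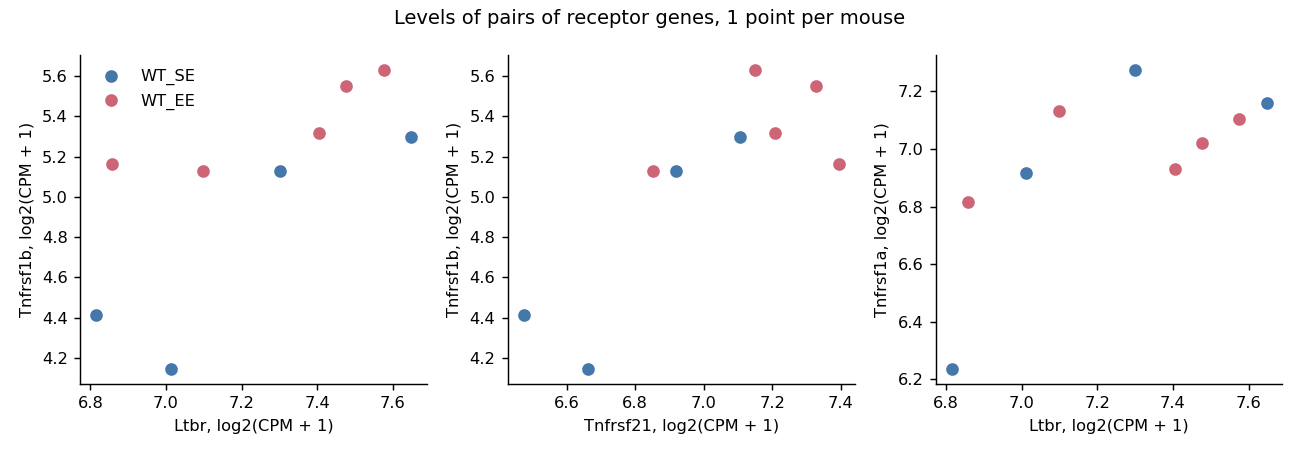
Level of one receptor gene against another, both as log2(normalized CPM + 1), with 1 point per mouse, blue for 4 WT_SE and red for 5 WT_EE mice. Pearson r is 0.72 for Tnfrsf1b with Ltbr (left), 0.82 for Tnfrsf1b with Tnfrsf21 (middle) and 0.68 for Tnfrsf1a with Ltbr (right), with 2 WT_SE mice low in the first 2 panels and 1 in the last.

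The genes with a pattern most like that of Tnfrsf10b and of Ltbr were looked up among 5809 genes with a mean of at least 20 counts, by Pearson r of log2(CPM + 1) over the 9 libraries. For Tnfrsf10b these were Rnpepl1 (r = 0.91), Ecsit (0.90) and Sirt1 (0.89), with r of 0.84, 0.80 and 0.91 within groups. For Ltbr they were Psmb6 (r = 0.97), Hacd1 (0.96) and Rab5if (0.95), with the same values within groups. They are the highest of many and carry no test, and the libraries share their depth and composition.

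Genes that act below these receptors were counted from the same fit. Of 47 receptor signalling genes tested, 5 had an unadjusted p under 0.05 (10.6%, against 7.65% of all genes), 4 higher and 1 lower in WT_EE, and their median log2 fold change was 0.06. Of the 47, DESeq2 called 3 (3.69% of all genes) and limma-voom 4 (7.78% of all genes) without adjustment. None passed adjustment in edgeR (0.0401% of all genes). The 4 that were higher were Nfkbiz, Tnfaip3, Nfkbib and Birc3. Nfkbiz, which encodes a nuclear cofactor of NF-kB, was at 83.8 ± 11.9 CPM in WT_SE (SD, n = 4) against 129 ± 38.4 CPM in WT_EE (SD, n = 5), a log2 fold change of 0.59 ± 0.21 (SE). Tnfaip3, the gene of A20, an enzyme that limits TNF receptor signalling, was at 11.7 ± 5.59 CPM in WT_SE against 26.1 ± 5.89 CPM in WT_EE, with no overlap between groups and a log2 fold change of 1.07 ± 0.41 (SE). Nfkbib, the gene of an inhibitor that holds NF-kB in the cytoplasm, also did not overlap. It was at 50.1 ± 8.09 CPM against 76.1 ± 14.5 CPM (log2 fold change 0.59 ± 0.23 SE). Groups did not overlap with WT_EE higher for 1.38% of all genes. Birc3, an inhibitor of apoptosis bound to TRAF adaptors, was at 37.3 ± 6.56 CPM in WT_SE against 59.2 ± 25.6 CPM in WT_EE (0.63 ± 0.28 SE), and these groups overlapped. The lower gene was Casp6, an effector caspase, at 131 ± 19.6 CPM in WT_SE against 98.1 ± 18.5 CPM in WT_EE (-0.39 ± 0.18 SE). In edgeR's quasi-likelihood test the unadjusted and adjusted p-values were 0.00662 and 0.392 for Nfkbiz, 0.0135 and 0.460 for Tnfaip3, 0.0140 and 0.465 for Nfkbib, 0.0317 and 0.580 for Birc3, and 0.0337 and 0.590 for Casp6. An unadjusted p under 0.05 was kept in 21 of 21 alternatives by Nfkbiz, 18 of 20 by Tnfaip3, 18 of 21 by Nfkbib, 15 of 21 by Birc3 and 13 of 21 by Casp6. The 3 genes of this list with the most counts did not pass, with log2 fold changes of -0.02 for Nfkbia, -0.19 for Xiap and -0.06 for Tab2.

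The other receptors and ligands of the family were 36 genes, of which 21 were tested. None had an unadjusted p under 0.05 in edgeR, DESeq2 or limma-voom (7.65%, 3.69% and 7.78% of all genes). Their best counted members were Tnfrsf11a at 143 ± 42.8 CPM in WT_SE (SD, n = 4) against 157 ± 15.5 CPM in WT_EE (SD, n = 5), Tnfsf13b, the gene of the B-cell survival factor BAFF, with a log2 fold change of 0.33 ± 0.35 (SE), and Tnfsf15 with 0.03 ± 0.39 (SE). For the 25 of the 36 genes at or under the floor everywhere, a difference was not detectable at this depth. Targets of p53, a factor known to act on Tnfrsf10b and Fas, numbered 17 tested, with a median of 0.21. Of these, 1 was called, Ccng1 (5.88%, against 7.65% of all genes). Ccng1, the gene of cyclin G1, did not overlap between groups, where 1.38% of all genes did not overlap with WT_EE higher. It was at 106 ± 8.96 CPM in WT_SE (SD, n = 4) against 140 ± 8.24 CPM in WT_EE (SD, n = 5). Its log2 fold change was 0.40 ± 0.16 (SE), with an edgeR p-value of 0.0188 before and 0.499 after Benjamini-Hochberg adjustment. DESeq2 called 0 of the 17 p53 targets (3.69% of all genes) and limma-voom 2 (7.78% of all genes). The best counted p53 targets gave log2 fold changes of -0.07 for Cdkn1a, -0.05 for Perp and 0.21 for Btg2, none of which passed. Genes of the stress factors ATF4 and CHOP, known to act on Tnfrsf10b, had 0 of 11 tested with an unadjusted p under 0.05 in edgeR, DESeq2 or limma-voom, with a median of 0.15 and log2 fold changes of 0.22 for Hspa5, -0.06 for Atf4 and 0.05 for Herpud1.

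**Figure D5:**
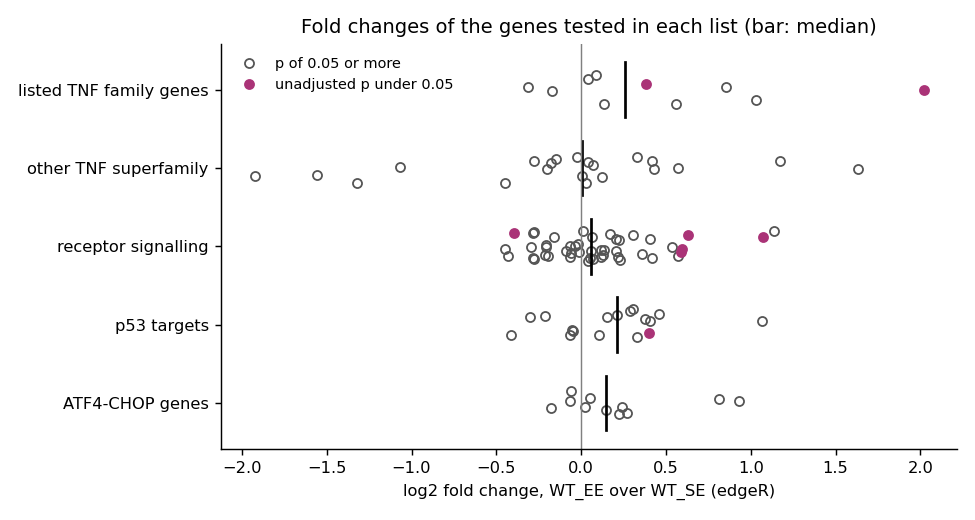
Log2 fold change of WT_EE over WT_SE (horizontal axis) of each tested gene in the 10 TNF family genes and in the 4 other lists, with filled points for an unadjusted edgeR p under 0.05 and a bar at each median. Points far from 0 among the other TNF superfamily genes are genes with few counts, and the medians are 0.26, 0.00, 0.06, 0.21 and 0.15 from top to bottom.

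Markers of the cell types of the colon wall were summed per library to set tissue composition beside these values. Epithelial markers, 11 genes, summed to 3664 to 4468 CPM in WT_SE and 3687 to 4561 CPM in WT_EE, and smooth muscle markers, 8 genes, to 1827 to 2386 and 1849 to 3434 CPM. Both main tissues of the colon wall were thus present in all 9 libraries. All 8 smooth muscle markers had a log2 fold change above 0, and 4 had an unadjusted p under 0.05. Of the 11 epithelial markers, 7 were above 0, and 1 was higher in WT_EE at that limit. Over all genes tested, 51.1% were above 0, and 4.31% were called higher and 3.34% lower in WT_EE at that limit. The highest smooth muscle sums were in WT_EE mice 2 and 4 (3434 and 3324 CPM). The 8 B- and T-cell markers summed to 10.1 to 78.0 CPM in WT_SE and 6.19 to 25.9 CPM in WT_EE, with Cd79a at 0 in all libraries, and 3 (Cr2, Ms4a1 and Cd79b) were lower in WT_EE at an unadjusted p under 0.05. Macrophage markers summed to 257 to 368 and 223 to 382 CPM, with a log2 fold change below 0 for all 8 and none called. Fat markers, 6 genes, ranged from 61.3 to 830 CPM in WT_SE and from 99.5 to 426 CPM in WT_EE, with the highest sums in WT_SE mouse 1 and WT_EE mouse 3. Only 1 of the 6 fat markers had a log2 fold change above 0, and 1 was called lower. Genes that mark position along the colon, 6 Hox genes and Slc10a2, summed to 209 to 514 CPM and 160 to 404 CPM, with Hoxd12 at 0. Of these 7 genes, 1 had a log2 fold change above 0 and 1 was called lower. Slc10a2 alone had 26, 103, 110 and 16 counts in WT_SE mice 1, 2, 3 and 5. It had 107, 3, 117, 4 and 10 counts in WT_EE mice 1 to 5. Slc10a2 thus differed widely within both groups, which the sums do not show. With the level of Slc10a2 as a covariate, the log2 fold change of Tnfrsf10b was 2.16. Enteric glia markers, 4 genes, had the smallest p of the lists, with 21.9 to 61.3 CPM in WT_SE and 48.6 to 89.7 CPM in WT_EE (exact permutation p = 0.0794, adjusted p = 0.541), and all 4 had a log2 fold change above 0, with 1 called. Endothelial markers, 5 genes, summed to 117 to 180 CPM and 157 to 232 CPM, with 4 of the 5 above 0 and 1 called. Fibroblast markers summed to 958 to 1143 CPM and 916 to 1408 CPM, enteric neuron markers to 224 to 365 CPM and 187 to 369 CPM, and mesothelial markers to 0 to 23.5 CPM and 2.16 to 15.5 CPM. Above 0 were 5 of 6 fibroblast and 4 of 6 enteric neuron markers, with none called. Of the 3 mesothelial markers, 1 was above 0 and 1 was called lower. None of the 11 marker lists passed a two-sided exact permutation test over all ways to part the mice into 4 and 5 (adjusted p from 0.541 to 0.833, smallest p possible 0.00794), and their part in the differences was not tested.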

How the data were processed

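Colon RNA of 9 wild-type mice, 4 in WT_SE and 5 in WT_EE, was analysed, with groups taken from the sample labels. The authors prepared QuantSeq 3′ libraries with UMIs and deposited counts per gene and library, as whole numbers without normalization. The submitters' processing notes name fastp 0.20.0, STAR 2.7.0f, featureCounts 1.6.0, UMI-tools and GRCm38.p6. Whether counting used strand is not given in the sources used here. Gene symbols and positions came from GENCODE M21 on GRCm38, with 22248 of 22262 genes matched to a symbol.

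A gene was kept when any library had 4 CPM or more (1.18 to 1.81 counts), and counts were fitted in R 4.3.3 with edgeR 4.0.16 (TMM, quasi-likelihood test, group as the only term), with Benjamini-Hochberg adjustment over all 17441 genes tested. The common biological coefficient of variation was 15.1%. limma 3.58.1 (limma-voom) and DESeq2 1.42.0 were alternatives. Other filters, scalings, covariates, a replicate block and the leaving out of single mice were also tried. A further 2 alternatives were added after seeing the data, leaving out the libraries with the most fat-marker counts and using the level of Slc10a2, a marker of position along the colon, as a covariate. Levels, relations and marker sums were tested by exact permutation with scipy 1.17.1 (python 3.11.15, pandas 2.3.3, numpy 2.4.6), and matplotlib 3.10.9 drew the plots. The fits were tested on simulated counts, with changes placed only in well-counted genes. Genes with as few counts as Tnfrsf10b were not covered by that test.

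The members, the lists and the tests were chosen with earlier results of these data known. Named genes were the 10 members, the genes of each list with an unadjusted p under 0.05 (at most 6), the 3 with the highest mean count in each list, and the 3 genes most like Tnfrsf10b and Ltbr. Marker genes were chosen as the lists were. The mice are separate animals, but cage mates are not given, and p-values measure the spread between these mice.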

Additional observations from a re-analysis of the deposited data

How the results depend on the processing

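Over all genes, 1334 had an unadjusted p under 0.05. The number was 804 with filterByExpr, 688 when the library-name ending was a covariate, 680 without the libraries ending in L3, 643 with the DESeq2 Wald test, 410 at a limit of 0.01, and 899 to 1581 with each mouse left out. Adjusted calls, 7 in edgeR, were 143 without a filter, 30 without WT_SE mouse 1 and WT_EE mouse 3, 2 with Slc10a2 as a covariate, and 0 with filterByExpr, the ending as a covariate, no L3 libraries, DESeq2 or limma-voom, and 0 to 48 with each mouse left out. The mouse number as a replicate block gave 70 adjusted calls, but deviations of same-numbered mice correlated at only -0.02, 0.05, 0.15 and 0.15 and 0 of 4 correlated best with their own number, so the numbers do not pair the mice. Of the 10 genes, 2 were called. The number was 1 with filterByExpr, which kept only Tnfrsf1a, Tnfrsf1b, Tnfrsf21 and Ltbr of the 10. It was also 1 with upper quartile scaling, the ending as a covariate, no L3 libraries, DESeq2 or without WT_SE mouse 1 and WT_EE mouse 3. With each mouse left out it was 1 to 3. Among the other TNF superfamily genes 0 were called, and 1 without WT_SE mouse 1 and WT_EE mouse 3 and 0 to 1 with each mouse left out. Receptor signalling genes called, 5, were 3 with DESeq2 and 4 to 8 with each mouse left out. Among p53 and ATF4-CHOP genes, 1 was called, and 2 without a filter, with upper quartile scaling, the ending as a covariate, no L3 libraries, Slc10a2 as a covariate or limma-voom, 3 without WT_SE mouse 1 and WT_EE mouse 3, 0 with DESeq2, and 1 to 4 with each mouse left out. The order of levels had 2 pairs past the test and 0 to 3 with each mouse left out, and no marker list passed in any of 11 alternatives. Upper quartile scaling turned the share of calls higher in WT_EE from 56.3% to 45.0%, while no scaling moved the median over all genes by more than 0.05 on the log2 scale. The cause of these changes was not tested. Depth limits what can be seen for Tnfrsf10b, Tnfsf10, Fas, Tnfsf12, Tnfrsf11b and Tnfrsf12a, each with under 10 counts on average.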
